A study of Mus musculus with 6 samples.

Results

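Nova1, Nova2, Ptbp1, Ptbp2, Mbnl1, Mbnl2, Khdrbs2, Khdrbs3, Srrm3 and Srrm4 encode RNA binding proteins and cofactors that control alternative splicing in neurons, and their expression was examined in the hippocampus of mice with additional Rbfox1. Isoforms were assigned to these 10 genes by their transcript names, which gave 88 of the 133944 isoforms and 10 of the 53354 genes quantified. RNA was sequenced from the hippocampus of 6 mice of the C57BL/6 strain at 3 months of age, 3 of each genotype, with 1 library per mouse. The N-cre mice carried the Nes-Cre transgene alone, in which the nestin promoter drives Cre recombinase. The N-cre;Fox1 mice carried the same transgene together with 1 R26-Rbfox1 allele, in which Cre removes a STOP cassette and lets the CAG promoter express an Rbfox1 cDNA from the Gt(ROSA)26Sor locus. All mice therefore carried the Cre transgene, and the study describes Cre activity under this promoter in neurons of the dentate gyrus, CA1 and CA3.

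Neurons use many exons that other tissues skip, and many of these exons are set by RNA binding proteins that act together on the same transcripts. Nova proteins bind clusters of YCAY, Ptbp proteins bind pyrimidine-rich RNA and mostly repress exons, and Mbnl proteins bind YGCY motifs and promote the splicing pattern of mature tissue. Khdrbs2 and Khdrbs3, also called SLM1 and SLM2, bind UA-rich RNA, and Srrm3 and Srrm4 are serine and arginine-rich proteins that promote the inclusion of neural microexons. Several of these factors also regulate their own transcripts or those of a paralog, so that a change in one of them can be read in the exons of another. Rbfox1 binds GCAUG, and the comparison of the genotypes asked whether the level, the isoforms or the exons of these factors differed when Rbfox1 was expressed from the additional allele.

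The libraries held 40463587 to 62141336 read pairs assigned to isoforms. The normalised counts of Rbfox1 summed over isoforms overlapped between the genotypes, with means of 14813 ± 427 and 14931 ± 1223 (SD, n = 3 each). Per annotated length its level did not overlap, at 68.6, 70.0 and 74.6 TPM in the N-cre mice and at 95.3, 87.2 and 93.1 TPM in the N-cre;Fox1 mice, higher in each mouse labelled with the additional allele. Its isoform Rbfox1-202, named because of its values, had 1753, 1778 and 1881 normalised counts in the N-cre mice and 2430, 2167 and 2353 in the N-cre;Fox1 mice. Choroid plexus markers set apart 2 libraries, with summed normalised counts of 118784 in N-cre replicate 3 and 267474 in N-cre;Fox1 replicate 2, against 1404 to 1930 in the other 4. The samples are bulk tissue, in which fewer cells of a type and less RNA per cell cannot be told apart. The p-values take the mouse as the unit, with 3 mice of each genotype.

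Among the cassette exons of these genes, short coding exons of the Ptbp and Mbnl paralogs are shown by sequence, because their known roles and their inclusion values are what the isoforms differ by. They were read from the GENCODE transcripts of mm10 and are written 5′ to 3′ on the transcribed strand, with capitals at the bases that differ from the paralogous exon. The 34-nt exons of Ptbp1 (chr10:79862014-79862047, plus strand) and Ptbp2 (chr3:119724612-119724645, minus strand) are coding, and their skipping is a known switch that shifts the reading frame. They are identical at 26 of 34 bases (76.5%).
Ptbp1 34-nt exon: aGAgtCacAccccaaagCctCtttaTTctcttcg
Ptbp2 34-nt exon: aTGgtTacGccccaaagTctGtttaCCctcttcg

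The 54-nt exons of Mbnl1 (chr3:60614683-60614736, plus strand) and Mbnl2 (chr14:120395712-120395765, plus strand) are known for their part in nuclear localisation, and 46 of 54 bases (85.2%) are identical. Their length is a multiple of 3, so that skipping keeps the reading frame.
Mbnl1 54-nt exon: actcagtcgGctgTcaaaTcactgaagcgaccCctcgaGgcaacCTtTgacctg
Mbnl2 54-nt exon: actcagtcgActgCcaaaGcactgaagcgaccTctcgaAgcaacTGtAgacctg

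The 36-nt exons of Mbnl1 (chr3:60621423-60621458, plus strand) and Mbnl2 (chr14:120403336-120403371, plus strand) are identical at 31 of 36 bases (86.1%) and also keep the frame. Both hold GCATG, the DNA form of the Rbfox motif, at bases 13 to 17 from the 5′ end of the exon.
Mbnl1 36-nt exon: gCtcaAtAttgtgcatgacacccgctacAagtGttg
Mbnl2 36-nt exon: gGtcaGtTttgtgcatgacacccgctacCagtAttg

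The 78-nt exon of Ptbp1 (chr10:79860117-79860194, plus strand) encodes part of the linker between the second and the third RNA recognition motif. It is shown because, of the most abundant coding isoforms of Ptbp1, Ptbp1-216 contains it and Ptbp1-202 lacks it. Their annotated coding sequences, of 1665 and 1467 nt, differ by more than this exon. The exon was compared with no paralogous exon and is in lower case throughout.
Ptbp1 78-nt exon: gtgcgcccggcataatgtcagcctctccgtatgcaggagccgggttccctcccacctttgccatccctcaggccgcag

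GCATG was searched on the transcribed strand of the 14 cassette exons of these genes and was found in 3, both 36-nt exons and a 155-nt exon of Ptbp2. It was present in 11.4% of 9115 cassette exons of all genes and in 1.87% of 536 annotated internal exons of 36 nt. On the opposite strand the same letters were found in 2 of the 14 exons, in 11.8% of the cassette exons and in 1.31% of the 36-nt exons. Introns were not searched, and a match does not show that Rbfox1 binds there.

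Levels were compared between genes as TPM, a relative abundance that divides the counts by the annotated isoform lengths. Khdrbs3 and Mbnl2 had the highest levels, with means over all 6 mice of 174 and 161 TPM, followed by Ptbp2 at 82.5 TPM. Srrm3 (46.7 TPM), Ptbp1 (40.9 TPM) and Mbnl1 (35.4 TPM) formed the middle of the order, and Nova2 (28.2 TPM) and Srrm4 (26.2 TPM) followed. Nova1 at 14.5 TPM and Khdrbs2 at 6.95 TPM were lowest. The order was not separated at 3 places. Srrm3 lay above Ptbp1 in 5 of 6 mice, and the ranges over mice of Ptbp1 and Mbnl1 and of Nova2 and Srrm4 overlapped although the first of each pair was higher in 6 of 6 mice. Within a gene, the levels of the 6 mice lay close together compared with the distances between most genes.

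**Figure D1:**
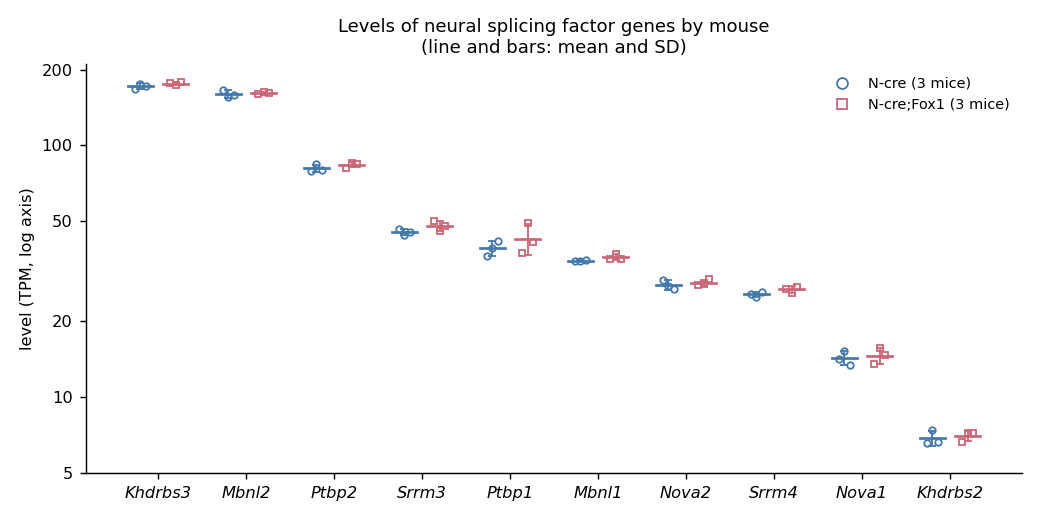
TPM of the 10 genes on a log axis, with 1 point per mouse (circles, N-cre; squares, N-cre;Fox1), a line at the mean and bars of 1 SD over 3 mice. Levels fall from Khdrbs3 at 168 to 178 TPM to Khdrbs2 at 6.56 to 7.43 TPM, and the genotypes lie side by side at each gene.

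The genotypes were compared on the gene counts with edgeR's quasi-likelihood test and Benjamini-Hochberg adjustment over 18924 genes. None of the 10 genes passed an adjusted p of 0.05, against 0.0264% of all genes tested, and 0 of 10 had an unadjusted p under 0.05, against 6.19% of all genes. DESeq2 and limma-voom called 0 of 10 as well. Normalised counts, which are expected counts scaled to a common library size, overlapped between the genotypes for 10 of 10 genes, whereas 12.1% of all genes had counts that did not overlap. The estimates were higher in N-cre;Fox1 mice for 6 genes and lower for 4, with a median log2 fold change of 0.0095 against -2.6e-05 over all genes tested. The intervals show what size of difference remains possible at this depth and spread. For Nova2, Ptbp2, Mbnl1, Mbnl2, Khdrbs3 and Srrm4 the 95% confidence interval of the change stayed within a fall of 5.53% and a rise of 9.22%. It was widest for Ptbp1, from -7.26% to 25.5%, and for Khdrbs2, from -13.4% to 15.3%.

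**Figure D2:**
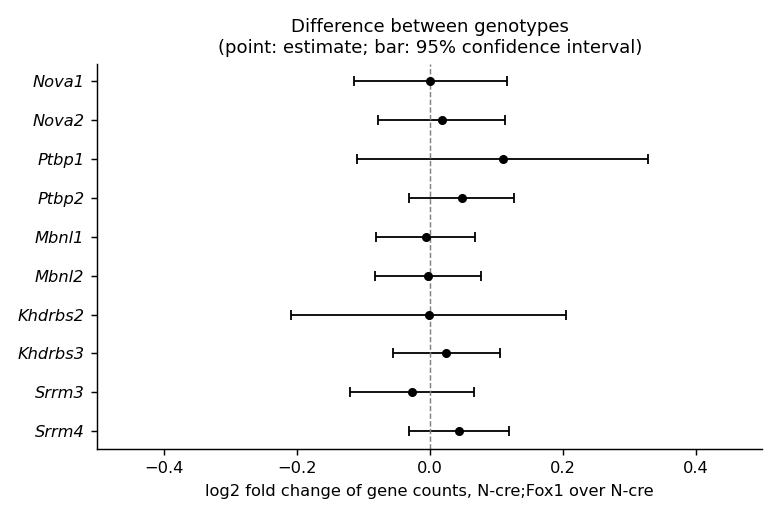
Log2 fold change of the gene counts, N-cre;Fox1 over N-cre, with 1 row per gene, points at the estimate and bars for the 95% confidence interval from edgeR. All 10 intervals include 0, and Ptbp1 and Khdrbs2 have the widest.

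Nova1 and Nova2 encode KH domain proteins that set the splicing of synaptic genes. Nova1 (ENSMUSG00000021047.7, chr12:46694517-46818929, minus strand) had normalised counts of 2114, 2163 and 1968 in N-cre and 1979, 2191 and 2080 in N-cre;Fox1 mice. The values of the genotypes interleaved, with a log2 fold change of 0.00 (95% confidence interval -0.11 to 0.12, adjusted p = 0.999 by edgeR). Nearly all Nova1 counts were on a single isoform, Nova1-201, whose share of the gene's counts was 98.95% to 99.70% over the 6 mice.

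Nova2 (ENSMUSG00000030411.16, chr7:18925888-18965319, plus strand) had normalised counts of 5252, 4930 and 4770 in N-cre and 5003, 4912 and 5231 in N-cre;Fox1 mice. The highest and the lowest value were both from N-cre mice, and the log2 fold change was 0.02 (95% confidence interval -0.08 to 0.11, adjusted p = 0.982 by edgeR). The 2 annotated isoforms, Nova2-201 and Nova2-202, have the same 8372 nt and differ only in the annotated coding sequence, of 1668 and 1476 nt. RSEM gave each of them 50% of the counts in every mouse, so that the data cannot tell them apart. Of the exon bases of Nova2, 31.7% also belong to Gm26821, a long noncoding RNA on the opposite strand, which had a count of 0 in all 6 mice.

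Ptbp1 and Ptbp2 encode polypyrimidine tract binding proteins. Ptbp1 is known from neural progenitors and non-neuronal cells, and it represses Ptbp2 there by skipping of the 34-nt exon of Ptbp2. Ptbp1 (ENSMUSG00000006498.16, chr10:79854427-79864771, plus strand) had normalised counts of 1764, 1921 and 2010 in N-cre and 1852, 2335 and 1950 in N-cre;Fox1 mice. N-cre;Fox1 replicate 2 was higher than all other mice, and the log2 fold change was 0.11 (95% confidence interval -0.11 to 0.33, adjusted p = 0.928 by edgeR). Without that mouse it was 0.0062. The same mouse and N-cre replicate 3 had the highest Ptbp1 counts of their genotypes and were the 2 libraries with high choroid plexus markers. The part of those markers in the Ptbp1 level was not tested.

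The counts of Ptbp1 were spread over 5 isoforms with a mean share of at least 5%. Ptbp1-216, a coding isoform with both the 78-nt and the 34-nt exon, took 44.2%, 44.7% and 46.0% in N-cre and 46.2%, 49.7% and 33.8% in N-cre;Fox1 mice. The coding isoform Ptbp1-202, which lacks the 78-nt exon, took 13.6%, 14.7% and 6.82% in N-cre and 19.2%, 10.4% and 23.2% in N-cre;Fox1 mice. Both shares overlapped, and N-cre;Fox1 replicate 2 was the highest for Ptbp1-216 and the lowest of its genotype for Ptbp1-202. Ptbp1-201, annotated as a target of nonsense-mediated decay and without either exon, had a mean share of 10.3% over all mice, and Ptbp1-205, which retains an intron, had 7.14%. Ptbp1-201 has 0 bases and 0 junctions of its own, and Ptbp1-202 has 0 bases and 1 junction. Their counts depend on how RSEM divided the reads.

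Ptbp1-213 covers the 3′ part of the gene and keeps the intron that follows the 34-nt exon, and 401 of its 2108 nt lie in no other isoform of Ptbp1. It took 22.0%, 21.6% and 21.6% of the counts in N-cre and 15.8%, 18.1% and 18.0% in N-cre;Fox1 mice. All N-cre;Fox1 mice were below all N-cre mice, with a difference of -4.40 percentage points and p = 0.1 in the exact two-sided permutation test over mice, the smallest p that 3 against 3 mice allow. With any mouse left out the difference was -4.78 to -3.66 percentage points. Its normalised counts overlapped between the genotypes, with means of 413 ± 22.5 and 356 ± 64.8 (SD, n = 3 each), a log2 fold change of -0.21 (95% confidence interval -0.58 to 0.15) and an adjusted p of 0.990 by edgeR. This log2 fold change was -0.10 without N-cre;Fox1 replicate 1 and -0.36 without N-cre;Fox1 replicate 2. Among the isoforms of the 10 genes with a mean share of 5% to 95%, shares did not overlap between the genotypes for 2 of 22, against 11.1% of such isoforms in all genes. The other was Srrm3-204. The 22 include Nova2-201 and Nova2-202, whose shares were fixed at 50% in every mouse and could not separate.

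Inclusion of a cassette exon was calculated as the share of isoforms with the exon among those that contain it or splice across it, weighted per annotated length. The 78-nt exon of Ptbp1 was included at 62.3%, 66.7% and 65.4% in N-cre and at 55.1%, 62.0% and 50.5% in N-cre;Fox1 mice. The highest N-cre;Fox1 mouse lay just under the lowest N-cre mouse. The difference of -8.95 percentage points had p = 0.1 (adjusted p = 0.8 over the 14 exons) in the exact permutation test. With a mouse left out it was -12.0 to -6.25 percentage points. Inclusion did not overlap between the genotypes for 1 of the 14 cassette exons of these genes, which was this exon, against 10.6% of 9120 cassette exons of all genes, and it was lower in every N-cre;Fox1 mouse for 5.53% of all cassette exons. When counts were not divided by length, or when coding isoforms alone were used, the inclusion of this exon overlapped between the genotypes. The isoforms that skip it, Ptbp1-201 and Ptbp1-202, have no base of their own, so its inclusion depends on how RSEM divided the reads.

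The 34-nt exon of Ptbp1 was included at 80.9%, 87.5% and 73.9% in N-cre and at 79.1%, 75.3% and 79.8% in N-cre;Fox1 mice, and the N-cre values lay on both sides of the others. Exon bases of Ptbp1 also belong to genes on the opposite strand, 9.22% to Gm17134, 6.22% to E130317F20Rik and 5.30% to Plppr3, with normalised counts of 0 to 1.27, 135 to 188 and 2574 to 3041. The strand setting of the counting is not known, so reads of Ptbp1 and of these genes may not be told apart. Reads of Ptbp1 may also be shared with Gm4900, a gene whose transcript aligns to Ptbp1 over 1662 nt at 95.2% identity and which had normalised counts of 0 to 3.94.

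Ptbp2, which takes over from Ptbp1 when neurons differentiate, lies on the minus strand (ENSMUSG00000028134.11, chr3:119718742-119784466). Its normalised counts were 4872, 4958 and 4653 in N-cre and 4967, 4934 and 5074 in N-cre;Fox1 mice. N-cre replicate 2 lay within the values of the N-cre;Fox1 mice, and the log2 fold change was 0.05 (95% confidence interval -0.03 to 0.13, adjusted p = 0.908 by edgeR). Ptbp2-201 took 71.4%, 71.7% and 70.7% of the counts in N-cre and 71.2%, 72.3% and 72.9% in N-cre;Fox1 mice. Ptbp2-213, which differs in the first exon and in the acceptor of the last exon, took 18.6% to 21.2% over the 6 mice. Both shares overlapped between the genotypes.

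The 34-nt exon of Ptbp2, the exon that Ptbp1 represses, was included at 82.7%, 79.2% and 79.5% in N-cre and at 82.6%, 80.4% and 82.5% in N-cre;Fox1 mice. The groups overlapped (p = 0.4, exact permutation test). By counts that were not divided by length its mean inclusion was 95.9%, and the isoforms that skip it are 576 to 1598 nt long against 3364 nt for Ptbp2-201. The 155-nt exon of Ptbp2 was included at 65.0% to 92.2% over the 6 mice, but as few as 14 counts in a mouse informed it.

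Mbnl1 and Mbnl2 encode the muscleblind proteins, whose loss from the nucleus by binding to expanded CUG repeats is the known basis of missplicing in myotonic dystrophy. Mbnl2 is the main member in adult brain. Mbnl2 (ENSMUSG00000022139.17, chr14:120275669-120431697, plus strand) had normalised counts of 11866, 11129 and 11137 in N-cre and 11415, 11254 and 11411 in N-cre;Fox1 mice. The N-cre;Fox1 values lay between those of N-cre mice, with a log2 fold change of 0.00 (95% confidence interval -0.08 to 0.08, adjusted p = 0.997 by edgeR). The isoform with both the 54-nt and the 36-nt exon, Mbnl2-202, took 41.4%, 45.9% and 41.2% of the counts in N-cre and 43.3%, 39.1% and 42.3% in N-cre;Fox1 mice. A processed transcript of 2 exons, Mbnl2-205, took 30.1% ± 0.76 and 29.9% ± 1.24 (SD, n = 3 each), and Mbnl2-204, which lacks both of these exons, took 17.2% ± 0.97 and 17.9% ± 0.58 (SD, n = 3 each). These shares overlapped between the genotypes. Mbnl2-201 had the 54-nt exon without the 36-nt exon and a mean share of 8.85%. Mbnl2-205 has 0 bases and 1 junction of its own, so its count depends on how RSEM divided the reads. Inclusion values of Mbnl2 exons that count it as skipping depend on the same division.

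Inclusion of the 54-nt exon of Mbnl2 was 59.4%, 58.7% and 56.6% in N-cre and 57.0%, 56.1% and 57.6% in N-cre;Fox1 mice. N-cre replicate 3 lay among the N-cre;Fox1 mice, and p was 0.3 in the exact permutation test. The level of this value depends on the length weighting, since it was 73.6% over all mice by counts that were not divided by length. The 36-nt exon, which holds GCATG, was included at 33.8%, 36.7% and 33.4% in N-cre and at 35.2%, 31.7% and 34.3% in N-cre;Fox1 mice, with no separation (p = 0.6, exact permutation test). Its mean inclusion was 34.2% when Mbnl2-205 counted as skipping and 52.4% in coding isoforms alone. The 95-nt exon of Mbnl2 (chr14:120404638-120404732) was included at a mean of 64.2%, and at 100% in coding isoforms alone, because Mbnl2-205 is the isoform that skips it.

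Mbnl1 (ENSMUSG00000027763.13, chr3:60472830-60629750, plus strand) had normalised counts of 3266, 3148 and 3189 in N-cre and 3190, 3247 and 3126 in N-cre;Fox1 mice. The genotypes interleaved, with a log2 fold change of -0.01 (95% confidence interval -0.08 to 0.07, adjusted p = 0.992 by edgeR). In TPM the genotypes of Mbnl1 did not overlap, with the N-cre mice at 34.7 to 35.0 and the others at 35.4 to 37.2, so that its counts and its TPM differed in this respect. Mean TPM was higher in N-cre;Fox1 mice for every gene of the set, also where the estimate from counts was lower. Srrm3, for example, had means of 45.4 TPM in N-cre and 48.0 TPM in N-cre;Fox1 mice. The share of all genes with TPM that did not overlap was not calculated. Mbnl1-201 took 31.3% to 38.9% of the counts over the 6 mice, Mbnl1-203 had a mean share of 30.8%, Mbnl1-214 of 24.2% and Mbnl1-218 of 5.15%. None of these 4 shares separated the genotypes.

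The 54-nt exon of Mbnl1 was included at 31.0%, 28.1% and 34.3% in N-cre and at 26.2%, 29.9% and 29.4% in N-cre;Fox1 mice, and its groups overlapped (p = 0.4, exact permutation test). Its 36-nt exon with GCATG was included at 69.8%, 73.7% and 67.3% in N-cre and at 74.1%, 70.6% and 71.3% in N-cre;Fox1 mice, and these groups overlapped as well. In all 6 mice Mbnl1 lay below Mbnl2 at the 54-nt exon and above it at the 36-nt exon. The 54-nt exon was included at a mean of 29.8% in Mbnl1 and 57.6% in Mbnl2, and the 36-nt exon at 71.1% in Mbnl1 and 34.2% in Mbnl2. In coding isoforms alone the 36-nt means were 71.1% and 52.4%. The 95-nt exon of Mbnl1 was included at 94.4%, a 1049-nt exon with 174 coding bases at 47.1% and a 111-nt exon at 6.23% over all mice, with overlapping groups. Of the isoforms with counts, only Mbnl1-210, of 576 nt, contains the 111-nt exon. By counts that were not divided by length its mean inclusion was 0.794%. A 114-nt exon of Mbnl1 rested on as few as 2 counts in a mouse, and its inclusion of 0% to 41.5% is not informative.

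**Figure D3:**
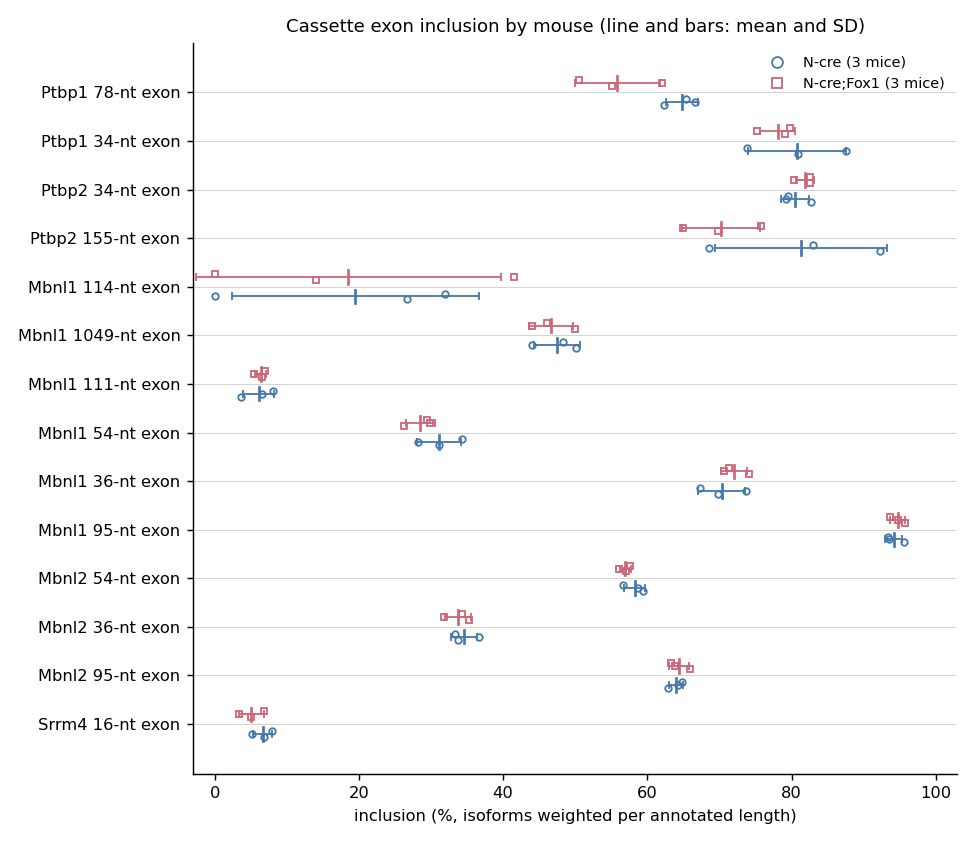
Inclusion of the 14 cassette exons in percent, with 1 point per mouse (circles, N-cre; squares, N-cre;Fox1), a line at the mean and bars of 1 SD over 3 mice. The 78-nt exon of Ptbp1 separates the genotypes, with circles at 62.3% to 66.7% and squares at 50.5% to 62.0%, and the other 13 exons overlap.

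Khdrbs3 and Khdrbs2 encode the SLM proteins, which are known to repress the alternatively spliced segment 4 of neurexins. Khdrbs3 (ENSMUSG00000022332.8, chr15:68928420-69093512, plus strand) has a single annotated isoform, and its normalised counts were 6773, 7071 and 6925 in N-cre and 7147, 6815 and 7163 in N-cre;Fox1 mice. The highest 2 values came from N-cre;Fox1 mice and the lowest from an N-cre mouse, but the ranges overlapped, with a log2 fold change of 0.02 (95% confidence interval -0.06 to 0.10, adjusted p = 0.967 by edgeR). Khdrbs2 (ENSMUSG00000026058.11, chr1:32172714-32658568, plus strand) was the least abundant of the 10 genes, at 337, 365 and 336 normalised counts in N-cre and 332, 353 and 352 in N-cre;Fox1 mice. The genotypes interleaved, with a log2 fold change of 0.00 (95% confidence interval -0.21 to 0.21, adjusted p = 0.999 by edgeR).

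Khdrbs2-201, an isoform of 9 exons, took 83.2%, 88.2% and 80.5% of the Khdrbs2 counts in N-cre and 85.4%, 82.9% and 84.7% in N-cre;Fox1 mice. Khdrbs2-205, which ends after its second exon in a long 3′ segment, had a mean share of 15.2%. Its normalised counts overlapped, with means of 53.7 ± 11.9 and 50.8 ± 6.77 (SD, n = 3 each).

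Srrm4 and Srrm3 promote microexons. Srrm4, also called nSR100, is the better known of the pair and mainly neural, and it also splices a neural exon into Rest. Srrm4 (ENSMUSG00000063919.11, chr5:116439275-116591817, minus strand) had normalised counts of 3549, 3579 and 3645 in N-cre and 3781, 3594 and 3730 in N-cre;Fox1 mice. The highest 2 were N-cre;Fox1 mice and the third of them lay between N-cre mice, with a log2 fold change of 0.04 (95% confidence interval -0.03 to 0.12, adjusted p = 0.911 by edgeR). The coding isoform Srrm4-201 took 57.1%, 56.4% and 66.2% in N-cre and 54.1%, 62.8% and 57.8% in N-cre;Fox1 mice. Srrm4-203, which holds the last 5 exons with part of the intron before them, took 30.6% to 42.2% over the 6 mice. Srrm4-201 and Srrm4-203 had mean shares of 59.1% and 37.3%, nearly all of the gene's counts. One share is therefore high where the other is low, as in N-cre replicate 3. A 16-nt exon of Srrm4 itself, found in an isoform annotated for nonsense-mediated decay, was included at 3.39% to 7.91% over the 6 mice, with overlapping groups, and at a mean of 0.566% by counts that were not divided by length.

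Srrm3 (ENSMUSG00000039860.19, chr5:135806890-135874772, plus strand) had normalised counts of 2553, 2561 and 2589 in N-cre and 2612, 2386 and 2565 in N-cre;Fox1 mice. The N-cre mice lay within the range of the N-cre;Fox1 mice, with a log2 fold change of -0.03 (95% confidence interval -0.12 to 0.07, adjusted p = 0.970 by edgeR). The main isoform, Srrm3-204, took 90.3%, 91.5% and 91.2% of the counts in N-cre and 88.7%, 89.7% and 89.4% in N-cre;Fox1 mice. Every N-cre;Fox1 mouse lay below every N-cre mouse, with a difference of -1.76 percentage points (p = 0.1, exact permutation test). When shares were taken per isoform length the difference was -5.16 percentage points, with the same p.

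Srrm3-204 was the isoform of this gene with the most bases of its own, 1663 of 3932 nt. Srrm3-202, a coding fragment of 526 nt without a base of its own, took 2.58%, 1.99% and 2.43% in N-cre and 3.88%, 3.18% and 2.91% in N-cre;Fox1 mice. It had the smallest p of the 47 isoforms tested, with a log2 fold change of its counts of 0.48 (95% confidence interval -0.05 to 1.01, adjusted p = 0.990 and unadjusted p = 0.067 by edgeR). All its bases are part of other isoforms, so its count depends on how RSEM divided the reads.

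Across the 88 isoforms, 73 had counts, 15 were at 0 in every mouse and 47 passed the filter on low counts. None of the 47 passed an adjusted p of 0.05, where 0% of 50556 isoforms did, and none had an unadjusted p under 0.05, against 4.78% of all isoforms tested. DESeq2 and limma-voom called 0 of the 47 as well. Normalised counts did not overlap between the genotypes for 4 of the 47, against 11.5% of all isoforms. These were Ptbp1-210, Ptbp2-202, Mbnl1-208 and Srrm3-202, all higher in N-cre;Fox1 mice and each with a mean share under 5% of its gene. They are named because of their values. The log2 fold changes of the 47 had a median of 0.0447, against 0.0040 over all isoforms tested.

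**Figure D4:**
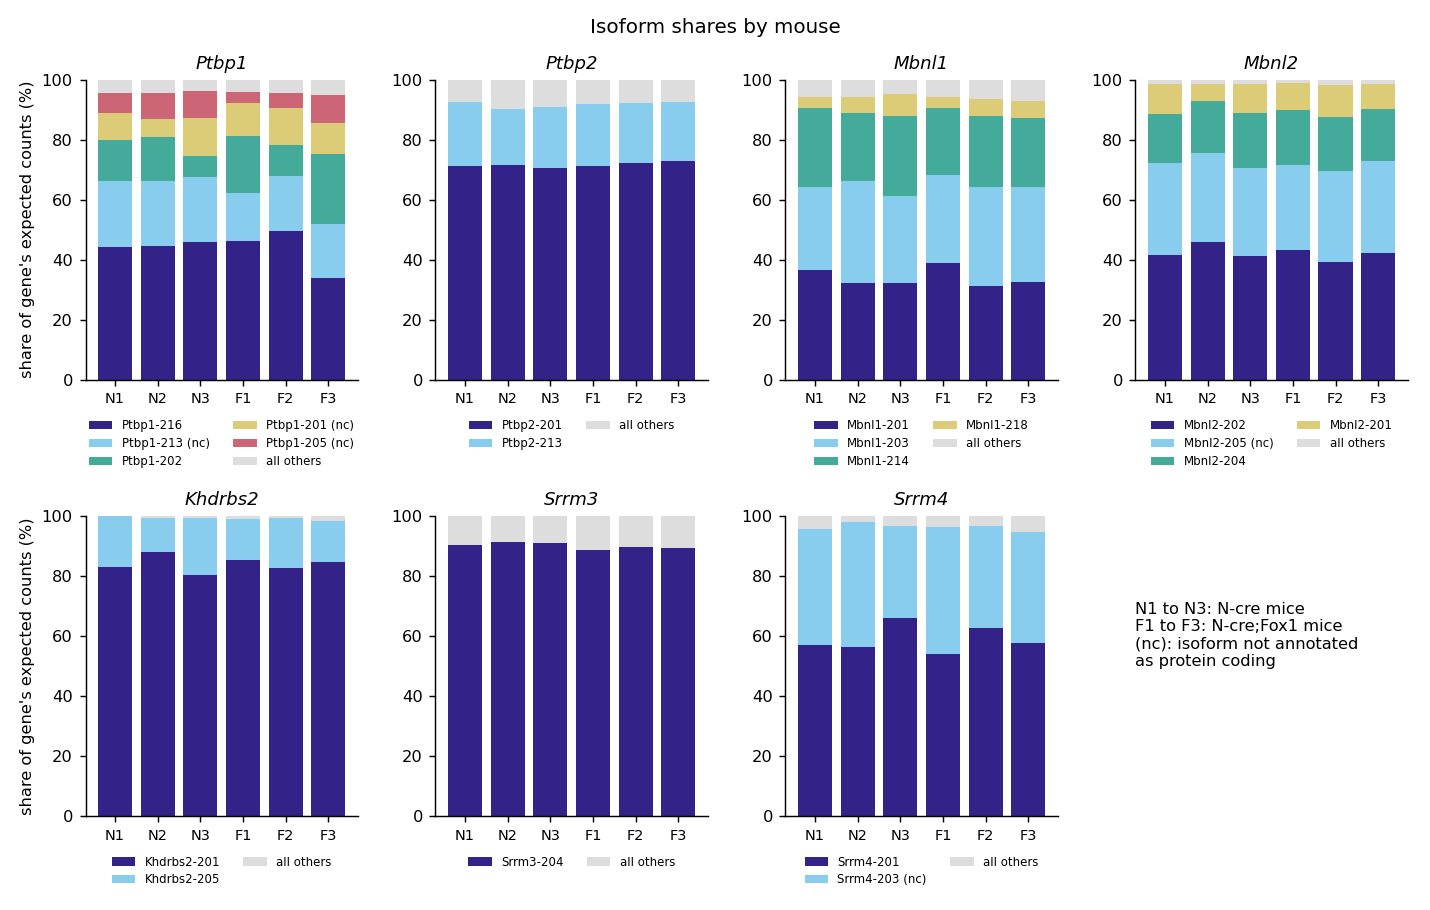
Share of a gene's expected counts in percent for isoforms with a mean share of at least 5%, stacked for each mouse (N1 to N3, N-cre; F1 to F3, N-cre;Fox1), with all other isoforms in grey. The bands of Ptbp2 and Mbnl2 change little between mice, whereas Ptbp1-216 ranges from 33.8% to 49.7%.

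Isoforms that are not annotated as protein coding took a mean of 41.2% of the counts of Ptbp1, 37.7% of those of Srrm4 and 30.6% of those of Mbnl2 over all mice. For Ptbp1 these were 30.7% on retained introns and 10.5% on transcripts subject to nonsense-mediated decay. For Mbnl2 they were nearly all on Mbnl2-205, which has no base of its own, so that this share depends on how RSEM divided the reads. The median over 14384 protein coding genes was 1.42%. Ptbp2 had 7.71%, Srrm3 7.04%, Mbnl1 3.08% and Nova1 0.346%, and Nova2, Khdrbs2 and Khdrbs3 had none. The libraries were made from total RNA, and the part of unspliced RNA in the counts of intron-retaining isoforms was not tested.

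The noncoding share of Mbnl1 was 2.88%, 2.67% and 2.46% in N-cre and 3.25%, 3.64% and 3.59% in N-cre;Fox1 mice. That of Srrm3 was 7.09%, 6.47% and 6.40% in N-cre and 7.44%, 7.16% and 7.68% in N-cre;Fox1 mice. In both genes each N-cre;Fox1 mouse was above each N-cre mouse, by means of 0.82 and 0.77 percentage points (p = 0.1 and adjusted p = 0.5 each, exact permutation test). When shares were taken per isoform length the difference was 2.39 percentage points for Mbnl1, still without overlap, and 1.26 for Srrm3, whose groups then overlapped (p = 0.3, exact permutation test). The shares of the other 8 genes overlapped. Of the 5 genes with a noncoding share of 5% to 95%, 1 did not overlap between the genotypes, which was Srrm3, against 11.1% of 4956 such genes. Mbnl1 lay under 5%, and the share over all genes under 5% was not calculated.

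**Figure D5:**
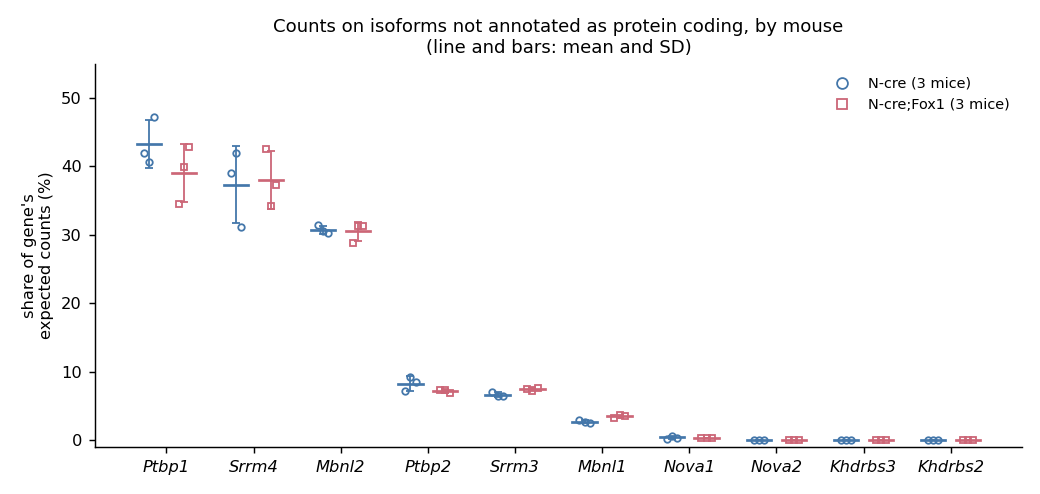
Share of each gene's expected counts on isoforms that are not annotated as protein coding, in percent, with 1 point per mouse (circles, N-cre; squares, N-cre;Fox1), a line at the mean and bars of 1 SD over 3 mice. Ptbp1, Srrm4 and Mbnl2 lie between 28.9% and 47.2%, and the other 7 genes lie at most at 9.20%.

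The balance within each pair of paralogs was read as the ratio of their TPM in the same mouse. Ptbp2 was 2.03-fold higher than Ptbp1, Mbnl2 4.54-fold higher than Mbnl1, Nova2 1.95-fold higher than Nova1, Khdrbs3 25.1-fold higher than Khdrbs2 and Srrm3 1.78-fold higher than Srrm4, as means over the 6 mice. The order in TPM was the same in every mouse. By counts that were not divided by length Srrm3 lay below Srrm4 in every mouse, and the log2 ratio of this pair then did not overlap between the genotypes, with a difference of -0.07 against 0.02 in TPM (p = 0.1, exact permutation test). The log2 ratio of Ptbp1 to Ptbp2 in N-cre mice was -1.05 ± 0.10 and in N-cre;Fox1 mice -0.98 ± 0.17 (SD, n = 3 each), and that of Mbnl1 to Mbnl2 was -2.20 ± 0.05 and -2.17 ± 0.03 (SD, n = 3 each). In TPM the ratios of all 5 pairs overlapped between the genotypes, with p from 0.6 to 1 in the exact permutation test.

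Other members of these families were measured beside them. Ptbp3, the third polypyrimidine tract binding protein, had 8.67, 8.05 and 8.65 TPM in N-cre and 8.96, 10.4 and 9.06 TPM in N-cre;Fox1 mice. Its counts did not overlap between the genotypes, as for 12.1% of all genes tested. Its log2 fold change of 0.12 (95% confidence interval 0.00 to 0.24) had an adjusted p of 0.799 by edgeR. Khdrbs1, which encodes SAM68, and Srrm1 and Srrm2, which encode general splicing coactivators, had log2 fold changes of -0.04, -0.02 and -0.02. Mbnl3 lay under the filter on low counts, at 0 to 0.087 TPM. Of a list of 55 other splicing regulators, 52 were tested and 0 passed an adjusted p of 0.05. An unadjusted p under 0.05 was found for 3 of the 52, against 6.19% of all genes tested. These were Msi1 and Ptbp3 with higher and Tia1 with lower estimates. The median log2 fold change of the list was 0.0033.

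Known target genes of these factors were measured as well. Their exons are known to respond to these proteins, whereas the test of gene counts does not measure exon choice. Of 27 such genes, 0 passed an adjusted p of 0.05 and 0 had an unadjusted p under 0.05, against 6.19% of all genes tested. Their median log2 fold change was -0.01. Dlg4, Nrxn2, Nrxn3 and Rest had log2 fold changes of -0.03, -0.02, 0.00 and 0.06. Cassette exons with an inclusion of 5% to 95% were found in Nrxn2 and Nrxn3 but not in Dlg4 or Rest. Isoforms without an annotated length stayed out of TPM and of exon inclusion. Dlg4 had a mean of 35260 normalised counts but of 9.16 TPM in N-cre mice. The lack of such an exon in Dlg4 is therefore no result about its splicing.

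The 90-nt exons of segment 4, which the SLM proteins repress, were included at means over all mice of 71.6% in Nrxn2 (chr19:6513716-6513805) and 76.3% in Nrxn3 (chr12:90199147-90199236). By genotype, N-cre first, the means were 71.7% ± 0.98 and 71.6% ± 1.34 for Nrxn2, and 76.9% ± 3.62 and 75.8% ± 0.84 for Nrxn3 (SD, n = 3 each). Both exons overlapped between the genotypes, with p = 1 for Nrxn2 and p = 0.9 for Nrxn3 in the exact permutation test.

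Markers of the cell types in the tissue were summed for comparison, since Ptbp1 and Mbnl1 are also expressed outside neurons. No marker passed an adjusted p of 0.05 in any of the 8 lists. Summed normalised counts of 9 neuron markers were 478642 to 536410. Of 8 astrocyte markers, 4 (Gfap, Aqp4, Slc1a2 and Gja1) had an unadjusted p under 0.05 and were higher in N-cre;Fox1 mice. Over all genes tested 6.19% had such a p. Aldoc had a log2 fold change of 0.03, and Aldh1l1, Slc1a3 and S100b had lower estimates, of -0.14, -0.02 and -0.03. The summed normalised counts of the list ranged from 222692 to 232986 in N-cre mice and from 234850 to 254732 with the additional allele, without overlap. Slc1a2 had the largest counts of the list, with means of 108300 in N-cre and 117447 in N-cre;Fox1 mice. Of 6 markers of neural progenitors 2 had an unadjusted p under 0.05 and were higher, as was 1 of 6 markers of oligodendrocytes. The sums of neural progenitors overlapped between the genotypes, as did those of neurons, oligodendrocytes, oligodendrocyte precursors, microglia, endothelium and choroid plexus. No marker was at 0 in all mice. The part of the astrocyte markers in the values of the 10 genes was not tested.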

How the data were processed

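Hippocampal total RNA of 6 mice was sequenced with a stranded kit. Per the submitters' notes and the study, cutadapt 1.18, STAR 2.5.2b and RSEM 1.3.0 took the reads to isoforms of GENCODE M16 on mm10. The authors deposited expected counts per isoform, neither normalised nor filtered, and whether RSEM used the strand is not given in the sources used here. The 10 genes and all lists were chosen with earlier results of these data known. Gene counts are sums over isoforms by symbol. Rounded expected counts were tested with edgeR 4.0.16 in R 4.3.3 (quasi-likelihood, robust, TMM, filterByExpr at 10 counts per library and 15 in all, Benjamini-Hochberg over all genes or isoforms, threshold 0.05). The study used EBSeq, which was not used here. DESeq2 1.42.0 and limma 3.58.1 were alternatives. TPM, biotypes and exons came from GENCODE M21 of mm10, which holds all 88 isoforms by identifier and version. Isoforms without an annotated length held 6.57% of all counts and stayed out of TPM and of exon inclusion. Shares, inclusion and ratios were compared by exact two-sided permutation of mice in Python 3.11.15. Sequence copies were searched with blastn (at least 150 nt at 95% identity).

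The rule for names took the 10 genes, isoforms with a mean share of at least 5% or an unadjusted p under 0.05, cassette exons with 5% to 95% inclusion, 5 family paralogs, and from the target genes Dlg4, Nrxn2, Nrxn3 and Rest. Some target genes under this rule are not reported here, and Rbfox1-202, Srrm3-202, Ptbp1-210, Ptbp2-202, Mbnl1-208, Msi1, Tia1 and the astrocyte markers were named after their values were seen. The fits were tested on simulated data. Depth was 40463587 to 62141336 read pairs, and the number of mice limits the precision. The replicate numbers of the labels were checked as pairs, which is described with the dependence on the processing.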

Additional observations from a re-analysis of the deposited data

How the results depend on the processing

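None of the 10 genes and none of their tested isoforms passed an adjusted p of 0.05 under any alternative run, with adjusted p of at least 0.615 for the genes and at least 0.784 for the isoforms. The number of genes called, 5 of all, was 45 without a filter, 50 with DESeq2, 11 with a term for the mice with Xist above 1000 counts, and 2 to 29 with a mouse left out (29 without N-cre;Fox1 replicate 1, 2 without N-cre replicate 2, and 3 without either replicate 3). The number of isoforms called, 0, was 10 without a filter, 6 with at least 10 counts in every mouse, 215 with DESeq2 and 1 without rounding. These causes were not tested. Non-overlapping shares were 2 to 6 isoforms with a mouse left out (6 without N-cre replicate 2, 5 without N-cre;Fox1 replicate 3, 4 without N-cre replicate 3), and 2 to 3 noncoding shares, or 1 per isoform length. Of the 14 exons, 0 did not overlap by counts or in coding isoforms alone (chosen after seeing the data), and 1 to 5 with a mouse left out (5 without N-cre replicate 2, 3 without either other N-cre mouse, 2 without N-cre;Fox1 replicate 3). Groups with a mouse left out separate more easily than groups with all mice. The shares over all isoforms, genes and exons with a mouse left out were not calculated. Of the 5 ratios, 1 did not overlap by counts, that of Srrm3 to Srrm4.

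Mice with the same replicate number deviated together for number 1 but not for 2 and 3 (correlations across genes of 0.365, -0.082 and -0.189). The highest correlation, 0.415, was between N-cre replicate 3 and N-cre;Fox1 replicate 2, so the numbers were not taken as pairs. Within the replicate block, 4 exons and 1 ratio moved the same way in all 3 numbers, where the smallest sign-flip p is 0.25, and no call changed.

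Signs reversed in 21 of 150 gene values, of size up to 0.0407, and in 38 of 360 isoform values of size up to 0.2385. By setting, the log2 fold changes were 0.0001 (DESeq2 size factors), 0.0036 (no filter), 0.002 (10 counts in every mouse), 0.0008 (DESeq2) and 0.0025 (voom) for Khdrbs2, -0.0092 (upper quartile), -0.0009 (voom) and -0.0003 (Xist term) for Nova1, and 0.0024 (no filter) and 0.0007 (10 counts in every mouse) for Mbnl2. They were -0.0022, -0.0125 and -0.0016 for Khdrbs2-201 (DESeq2 size factors, upper quartile, DESeq2), 0.0018 for Nova1-201 (no filter), 0.0032, 0.0006, 0.0144 and 0.0026 for Srrm4-201 (no filter, 10 counts in every mouse, voom, replicate block), and -0.0058 for Mbnl1-201 and 0.0295 for Mbnl1-218 (voom). With a mouse left out the ranges were -0.0178 to 0.0137 for Mbnl1, -0.0152 to 0.0338 for Mbnl2, -0.0177 to 0.0407 for Khdrbs2, -0.0347 to 0.0412 for Nova1, -0.0089 to 0.0623 for Nova2 and -0.0481 to 0.0138 for Srrm3. For isoforms they were -0.1756 to 0.236 for Ptbp1-216, -0.0413 to 0.0298 for Nova1-201, -0.0459 to 0.0359 for Mbnl2-205, -0.0493 to 0.0791 for Khdrbs2-201, -0.0076 to 0.125 for Mbnl1-203, -0.1028 to 0.3094 for Mbnl2-201, -0.089 to 0.0917 for Mbnl1-201, -0.2517 to 0.0592 for Khdrbs2-205, -0.2746 to 0.2385 for Mbnl1-218, -0.0146 to 0.0551 for Nova2-201 and Nova2-202, -0.0444 to 0.0883 for Srrm4-201 and -0.0363 to 0.1652 for Srrm4-203.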
